A study of Mus musculus with 12 samples.

Results

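Red-only and green-only progenitors were sorted from differentiating mouse embryonic stem cells, and each carried the signal of a single one of a pair of fluorescent reporters. The comparison uses 6 of the 12 arrays of the series: the 3 titled Red+/Green-, here called red-only, and the 3 titled Red-/Green+, here called green-only, with 1 array of each population from experiments A, B and C (red-only array A and so on). Embryonic stem cells were differentiated as embryoid bodies in hanging droplets, dissociated at day 6 and separated by fluorescence. Red-only cells were positive for dsRed, driven by what the labels call a second heart field specific reporter, and negative for eGFP under a cardiac specific enhancer, and green-only cells had the reverse pattern. Red+/Green+ cells (double-positive) and cells with neither signal (double-negative), also 3 arrays each, entered the statistical fit and are used below to show where else a gene was high. The strain and the clone of the cells are not stated in the labels, nor whether the 3 experiments were separate cultures, so p-values measure the spread between these arrays, which may be technical. The sort description repeats the name of a population, and groups were therefore taken from the titles. Because each sort is a bulk sample, more cells of a type and more RNA per cell cannot be told apart in any value below.

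The heart is built from mesodermal progenitors of the first and second heart fields. Second heart field cells lie in the pharyngeal mesoderm, carry the LIM homeodomain factor Isl1, and are known to give rise to outflow tract and right ventricular muscle, and to smooth muscle and endothelium. When a progenitor becomes a cardiomyocyte it assembles sarcomeres, in which myosin thick filaments slide along actin thin filaments anchored at the Z-disc. Foxc1, Foxc2, Tcf21 and Twist1 are transcription factors of pharyngeal, cephalic and branchial arch mesenchyme. The labels do not name the genes behind the reporters, and from general knowledge of the study, not from these data, the enhancers are those of Mef2c (dsRed) and Nkx2-5 (eGFP).

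Total RNA had been hybridised to Affymetrix mouse arrays, and the values are probe set intensities on a linear scale, from 2.09 to 8820 over all arrays. Array medians lay between 6.29 and 6.73, and the ratio of the 3′ to the 5′ actin control probe sets was 1.32 to 1.48 on the 6 arrays compared, with the populations overlapping. Among them green-only array A was unlike the rest: its log2 values deviated from their population mean with an SD of 0.224, against 0.125 to 0.179 on the other 11 arrays. Some of the results that rest on it are given with and without it. Genes whose green-only values were highest on it and that are given with all arrays only include Spink1, Clic6, Car4, Cldn6 and Tmprss2.

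Of the 13700 genes tested, 683 (4.99%) differed between red-only and green-only cells at an adjusted p under 0.05, which is what "called" means below. Among them 271 genes (1.98%) were higher in red-only cells and 412 (3.01%) in green-only cells, and 2529 had an unadjusted p under 0.05. Large differences were mostly on the green side, where 154 called genes differed by at least 2-fold, against 42 on the red side. The 3 red-only and 3 green-only arrays did not overlap for 629 of the 683 called genes, beside 2464 (18.0%) of all tested genes, and all 683 had the same sign in the 3 experiments. Over all tested genes the median log2 difference, red-only minus green-only, was -0.00. The count depended on the arrays and on the pairing by experiment: it was 393 without the experiment letter as a block, 402 with only the 6 arrays in the fit, 319 without red-only array A, 329 without that of B, 385 without green-only array B, 376 without experiment C and 130 without experiment B. Without green-only array A, 656 genes were called, of which 490 were among the 683. No called gene changed sign in any of these fits.

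**Figure D1:**
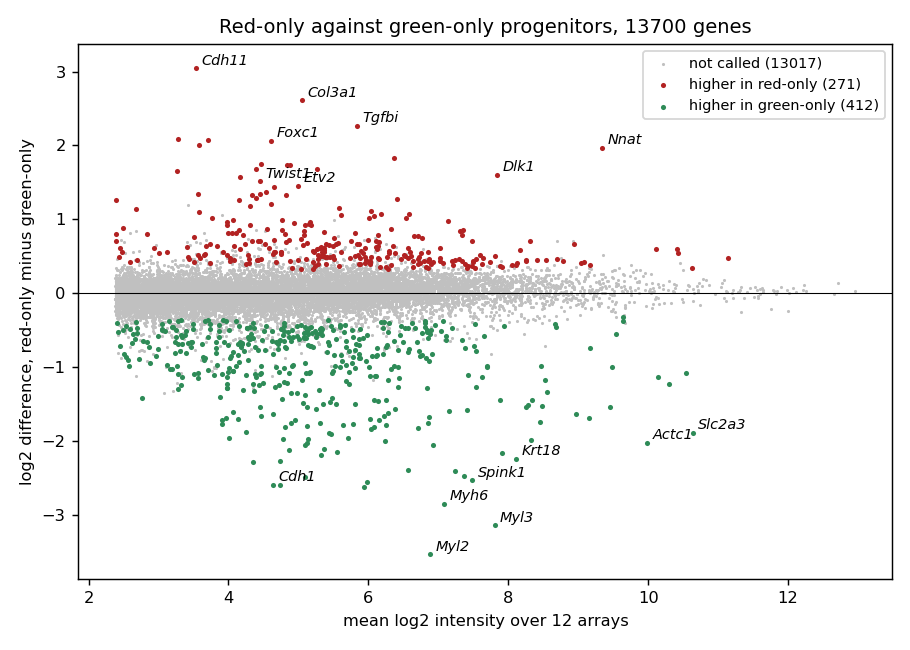
Each point is 1 of the 13700 tested genes, with its mean log2 intensity over 12 arrays on the x axis and its log2 difference, red-only minus green-only, on the y axis. Coloured points are the 271 genes called higher in red-only cells and the 412 called higher in green-only cells, and labelled genes include Cdh11 at 3.04 and Myl2 at -3.54.

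Genes higher in red-only cells included a mesenchymal cadherin and transcription factors of pharyngeal mesenchyme. Cdh11, a cadherin of mesenchymal cells, had intensities of 59.7, 49.4 and 44.4 on the red-only arrays of experiments A, B and C, and 5.13, 7.73 and 5.88 on the green-only arrays. The red-only arrays were all above the green-only arrays, which lay around the array medians, and the double-positive (3.67, 6.97 and 7.98) and double-negative (6.87, 9.31 and 14.3) arrays were low as well. The log2 difference of 3.04 (SE 0.25, adjusted p = 0.00014) was the largest on the red side, and was 2.42 after adding the 25th percentile of all intensities (4.10) to each value, so its size depends on the low values. Foxc1, a forkhead factor needed for mesenchyme of the head and outflow tract, read 69.6, 70.9 and 58 in red-only against 11.9, 18.1 and 18.3 in green-only cells. Its red-only values were well above those of the other 9 arrays, and the log2 difference was 2.06 (SE 0.15, adjusted p = 7.51e-05). Twist1, a factor of mesenchymal cells, read 52.7, 52.6 and 54.3 against 13.1, 19.1 and 25.9, a log2 difference of 1.51 (SE 0.19, adjusted p = 0.000743). The 3 red-only arrays were nearly equal for Twist1, and no array of another population reached them. Summed over the 3 mesenchyme markers, the level was 157 to 182 in red-only cells, 30.1 to 50.1 in green-only cells, and 30.2 to 52.5 on the other 6 arrays. The 3 markers were chosen as genes expected to be higher in red-only cells, so their sum is no independent support.

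Part of the mesenchymal transcription factors were higher in red-only cells. Of 30 listed genes, 21 passed the filter on low values, and 9 of these were higher in red-only cells and 0 in green-only cells (background 1.98% and 3.01%), with a median log2 difference of 0.51 beside -0.00 for all genes. Without green-only array A 8 were called (median 0.30), and without red-only array A 6 (median 0.30). Foxc2, the close relative of Foxc1, had values of 64.3, 93.9 and 82.1 in red-only against 12.8, 32.6 and 32.3 in green-only cells, and Tcf21, a factor of head muscle and epicardial precursors, 56.5, 26.1 and 19.8 against 7.33, 8.71 and 7.09. Experiment A carried the highest Tcf21 value, yet the lowest red-only array was still above all green-only arrays. The log2 differences were 1.73 for Foxc2 and 2.004 for Tcf21, and a further Tcf21 probe set differed by -0.17 (adjusted p = 0.643). Snai2, a repressor of epithelial genes, read 53.04, 44.05 and 33.9 against 14.6, 11.5 and 18.2, a log2 difference of 1.57 (adjusted p = 0.000304). Its relative Snai1 (1.02, adjusted p = 0.0133) and Zeb2 (0.61, adjusted p = 0.00437), a repressor of the same genes, differed less. Snai1 missed the threshold without red-only array A (adjusted p = 0.0838), without that of B (0.0811), without green-only array B (0.0732) and without experiment B (0.252). Zeb2 missed it without experiment B (adjusted p = 0.134), a fit in which 5 of the 21 genes were called.

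Some genes of the second heart field and pharyngeal mesoderm were higher in red-only cells as well. Of 22 listed, 15 were tested and 5 were higher in red-only cells, 0 in green-only cells (background 1.98% and 3.01%). The median log2 difference was 0.57. The list was chosen with earlier results of these data known, so the count describes its members and is no independent support. Foxc1, Foxc2 and Tcf21 are also in the preceding list, and the others were Tgfbi and Six2. Tgfbi, a secreted matrix protein induced by TGF-beta, had values of 185, 206 and 171 in red-only cells, 29.3, 39.7 and 50.4 in green-only cells, 81.6, 46.4 and 61.7 in double-positive cells and 16.8, 25.8 and 30.4 in double-negative cells. Red-only arrays were the highest of all 12 and the log2 difference was 2.27 (SE 0.24, adjusted p = 0.000303). Six2, a homeodomain factor, read 19.1, 29.4 and 23.5 against 13.4, 14.2 and 12.9 (0.81, adjusted p = 0.0254), and its call was lost without the block, without experiment B or C, and in each fit that left out a red-only array, green-only array B or green-only array C (adjusted p = 0.0538 to 0.291). Tbx1, a T-box factor of pharyngeal mesoderm, read 20.8, 14.4 and 10.6 against 11.6, 9.43 and 6.80, overlapping between the populations (0.70, adjusted p = 0.0711), and passed without red-only array C (adjusted p = 0.0323).

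Isl1, Mef2c and Nkx2-5 did not pass the test. Isl1 read 100.3, 95.3 and 107 in red-only, 89.2, 78.6 and 73.7 in green-only, 76.5, 88.6 and 95.1 in double-positive and 44.3, 35.7 and 53.6 in double-negative cells. The red-only and green-only arrays did not overlap, but the log2 difference was only 0.33 (SE 0.13, adjusted p = 0.209). Mef2c, a MADS-box factor of muscle, read 189, 246 and 271 in red-only against 166, 296 and 232 in green-only cells, with 439, 487 and 447 in double-positive and 13.9, 25.2 and 25.7 in double-negative cells. The difference between the single-colour populations was 0.05 (SE 0.15, adjusted p = 0.91) and its sign turned when either array of experiment C or green-only array A was left out, so no direction can be given. Nkx2-5, a homeodomain factor of heart muscle, read 138, 154 and 207 in red-only against 191, 266 and 239.9 in green-only cells, which overlapped (-0.49, SE 0.14, adjusted p = 0.0714), and passed without red-only array C (adjusted p = 0.0365). It also passed, higher in green-only cells, with all arrays under the trended and robust variance model of limma. Both single-colour populations lay below the double-positive arrays (369.7, 452 and 425) and above the double-negative arrays (37.9, 31.6 and 37) for Nkx2-5.

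Other cardiac transcription factors were split. Of 20 tested, Hand2 and Hopx were higher in red-only cells, Smyd1 and Irx4 in green-only cells, and 16 were not called (median -0.12, background 1.98% and 3.01%). Hand2, a bHLH factor of the outflow tract and right ventricle, had values of 186, 247 and 239 in red-only against 84.8, 167 and 157 in green-only cells, with 175, 255 and 223 in double-positive cells. Within each experiment the red-only array was higher, by a log2 difference of 0.77 (SE 0.12, adjusted p = 0.00361), and the call was lost without the block (adjusted p = 0.125) and without experiment B (adjusted p = 0.0509). Irx4, a factor of ventricular muscle, was dim, at 5.21, 6.85 and 7.49 against 9.69, 19.9 and 14.7 (-1.14, adjusted p = 0.00577), and was lost without experiment B (adjusted p = 0.0862). Smyd1, a muscle histone methyltransferase, differed by -0.85 (adjusted p = 0.00891), and Hopx, a small homeodomain protein, by 0.54 (adjusted p = 0.0138). Without red-only array A the adjusted p was 0.051 for Smyd1 and 0.0927 for Hopx. Hopx was also lost with the 6 arrays alone in the fit (adjusted p = 0.0884), without experiment A, B or C (0.0779 to 0.103), and where a 1.5-fold difference was required. Smyd1 was also lost without experiment B (0.207), red-only array B (0.06), green-only array B (0.0579) or the block (0.0502), and 2 further Smyd1 probe sets differed by 0.02 and -0.15 without a call, while 2 others were called in the same direction. Without experiment B, 0 of the 20 factors were called in either direction. Gata4, a zinc-finger factor of the whole cardiac lineage, read 138, 162 and 169.9 against 202, 186 and 190.3 (-0.31, adjusted p = 0.162).

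**Figure D2:**
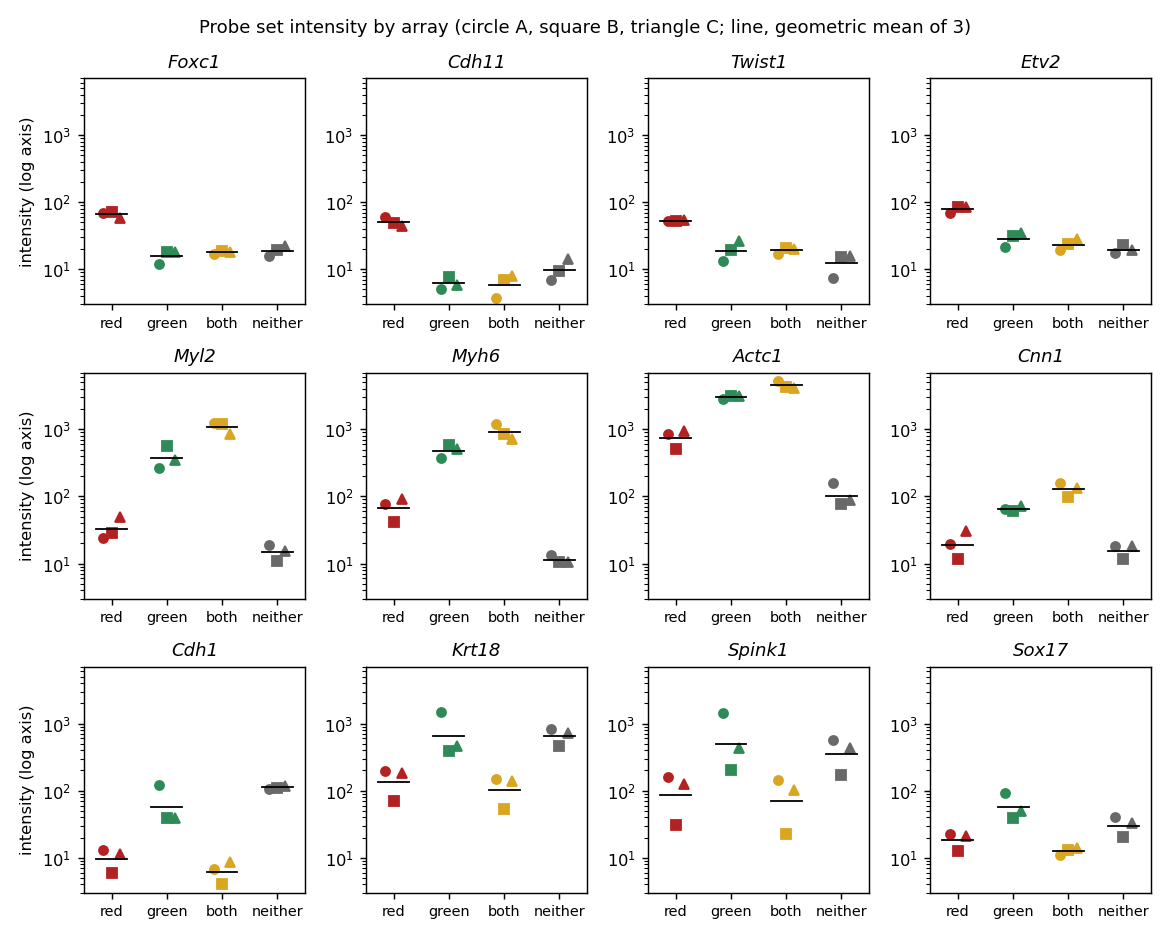
Intensity (log axis) of 12 genes on each of the 12 arrays, grouped as red-only, green-only, double-positive (both) and double-negative (neither), with symbols for experiments A, B and C and a line at the geometric mean of 3 arrays. Foxc1, Cdh11, Twist1 and Etv2 are high on the red-only arrays alone, the muscle genes Myl2, Myh6, Actc1 and Cnn1 are highest in double-positive cells, and Cdh1, Krt18 and Spink1 are high in green-only and double-negative cells.

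Some matrix genes were also higher in red-only cells. Of 23 tested collagen genes, 6 were higher in red-only cells and 0 in green-only cells (median 0.18, background 1.98% and 3.01%). Col3a1, a fibrillar collagen of loose connective tissue, had values of 384, 74.5 and 73.4 in red-only against 23.97, 20.1 and 19.1 in green-only cells. Red-only array A was far above those of B and C, and all 3 were above the other 9 arrays. The log2 difference was 2.61 (SE 0.32, adjusted p = 0.000743) and 2.01 without that array (adjusted p = 9.24e-05). Col26a1 read 27.9, 28.2 and 25.6 against 4.91, 7.24 and 7.43, Col5a2, which helps set fibril diameter, 191, 210.2 and 174 against 60.9, 96.2 and 83.01, and the membrane collagen Col13a1 40.4, 32.1 and 38.4 against 15.96, 21.2 and 21.5. None of the 3 overlapped between the populations, and their log2 differences were 2.09, 1.28 and 0.93. Col1a1, the main fibrillar collagen of bone and skin, differed by 0.23 (adjusted p = 0.225), with overlapping arrays. As the mean of its probe sets it was called higher in red-only cells, so its call depends on the probe set.

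Among 35 tested matricellular, proteoglycan and matrix-modifying genes, 7 were higher in red-only cells and 1 in green-only cells (median 0.25, background 1.98% and 3.01%). The microfibril-associated genes Mfap2 and Mfap4 read 187, 157 and 165 against 81.4, 75.7 and 83.4 and 55.1, 35.3 and 42.1 against 15.6, 15.9 and 18.9. Red-only arrays were higher throughout, by 1.08 and 1.38 on the log2 scale (adjusted p = 0.000198 and 0.00191). The gelatinase Mmp2 (1.02, adjusted p = 0.00125) and the proteoglycan Bgn (1.18, adjusted p = 0.00645) were also called, and were lost without experiment B (adjusted p = 0.0564 and 0.103), where 2 genes of the list were called on the red side. The gene higher in green-only cells was Lama4, a laminin chain of muscle and vessel basement membranes, with values of 11.4, 10.8 and 12.4 against 19.5, 26.4 and 31.4 (-1.13, adjusted p = 0.002), and -0.77 on another probe set (adjusted p = 0.0514). Fn1, encoding fibronectin, read 1358, 1910.5 and 1427 against 1199, 1409.98 and 1238, and Sparc 407, 195 and 228 against 452, 302 and 295. Both overlapped between the populations, at adjusted p = 0.4 for Fn1 and 0.255 for Sparc.

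Secreted growth factors and their receptors moved in both directions. Of 28 tested genes of the PDGF, IGF, VEGF and related families, 6 were higher in red-only cells and 5 in green-only cells (background 1.98% and 3.01%). The red-side count fell to 3 without red-only array A, without experiment B and without experiment C. The green-side count was 3 without either array of A or green-only array B, 2 without red-only array B or C, and 0 without experiment B. Vegfc, a ligand of lymphatic and endothelial receptors, had values of 57.3, 60.1 and 62.1 in red-only against 17.97, 18.8 and 31.5 in green-only cells, the receptor gene Pdgfrb of mesenchymal and mural cells 21.2, 28.01 and 18.6 against 7.76, 8.78 and 9.89, and the heparin-binding factor Ptn 67.9, 37.6 and 33.3 against 15.5, 14.9 and 11.2. The populations did not overlap for any of these 3 genes. Their log2 differences were 1.44 (adjusted p = 0.000639), 1.34 (adjusted p = 0.000853) and 1.68 (adjusted p = 0.000684), and another Ptn probe set differed by 0.06 (adjusted p = 0.851). Pgf, a VEGF-family ligand outside that list, read 80.5, 64.01 and 49.2 against 20.2, 20.9 and 16.5, a log2 difference of 1.73 (SE 0.15, adjusted p = 0.000178). Rgs5, a regulator of G-protein signalling known from pericytes, read 119, 96.98 and 125 against 36.6, 29.9 and 40.3 (1.68, adjusted p = 0.000957) and was lost without experiment B (adjusted p = 0.0605).

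Etv2, an ETS factor that specifies blood and endothelial precursors, was a red-only gene as well. Its values were 68.99, 84 and 83.5 in red-only, 21.3, 31.5 and 34.8 in green-only, 19.2, 23.6 and 28.3 in double-positive and 17.3, 22.7 and 19.3 in double-negative cells. Every red-only array was above every array of the other populations, and the log2 difference was 1.46 (SE 0.11, adjusted p = 0.000106). Of 12 tested hemato-endothelial transcription factors, Etv2 and Lmo2 were called, both higher in red-only cells (background 1.98%). Without green-only array A the red side kept 2 calls and the green side had 1 (background 2.86% on the green side). Without experiment A each side had 2 calls. Lmo2, a LIM-only partner of blood factors, read 85.2, 129 and 142 against 42.2, 88.3 and 79.9, which overlapped across but not within experiments (0.79, adjusted p = 0.00361, and 0.183 without the block).

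The remaining genes among the 15 largest differences on the red side were Nnat, Hsd11b2, Crabp1, Mlf1 and Clmp. Nnat, an imprinted membrane proteolipid gene of neural and endocrine cells, read 2246, 1613 and 1413 in red-only cells, against 504, 404 and 422 in green-only cells, 262, 330.1 and 343 in double-positive and 685, 812 and 764 in double-negative cells. Its log2 difference was 1.97 (adjusted p = 0.000178). Dlk1, an imprinted Notch-ligand relative of progenitor cells that ranked below these, read 528, 637 and 622 against 195, 189 and 202 (1.60, adjusted p = 0.00057), and a second Dlk1 probe set differed by -0.00. Hsd11b2, which inactivates glucocorticoids, read 304, 204 and 206 against 78.7, 62.7 and 57.8, and Crabp1, a retinoic acid-binding protein of neural crest mesenchyme, 16.2, 53.8 and 45.7 against 6.00, 7.60 and 11.7. Arrays did not overlap for either, although red-only array A was low for Crabp1. Mlf1 read 48.99, 42.96 and 54.7 in red-only against 10.9, 14.5 and 19.1 in green-only cells and was about as high in double-positive cells (57.1, 49.3 and 62.6), and the adhesion molecule gene Clmp was dim (24.3, 18.1 and 20.01 against 5.19, 7.17 and 7.50). Log2 differences were 1.83 for Hsd11b2, 2.07 for Crabp1, 1.75 for Mlf1 and 1.66 for Clmp. Of 16 tested imprinted growth genes, 4 were higher in red-only cells and 0 in green-only cells (median 0.26, background 1.98% and 3.01%). The count was 2 without red-only array B or all of B and 7 with the 25th percentile added to each value.

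Many genes of the sarcomere were higher in green-only cells. Thick filament and light chain genes were higher in green-only cells for 8 of 12 tested, thin filament genes for 10 of 14, and Z-disc, titin and costamere genes for 13 of 19, beside 3.01% of all genes. Their median log2 differences, red-only minus green-only, were -1.59, -1.37 and -0.99, and without experiment B the thin filament and Z-disc counts were 5 each. Myl2, the regulatory light chain of ventricular muscle, had values of 24.1, 28.7 and 48.8 in red-only, 265, 566 and 352 in green-only, 1230.2, 1194 and 864 in double-positive and 18.8, 11 and 15.6 in double-negative cells. Green-only arrays were all far above red-only arrays and below double-positive arrays, and the log2 difference of -3.54 (SE 0.31, adjusted p = 0.000178) was the largest of all called genes. Myl3, the essential light chain, read 69.9, 59.2 and 135 against 644, 761 and 787 (-3.14), and the atrial and early cardiac myosin heavy chain gene Myh6 78.4, 41.6 and 92.2 against 376, 585 and 514 (-2.85). Myh7, the slow cardiac heavy chain, read 446, 268 and 496 against 1358, 1043 and 1244 (-1.63, adjusted p = 0.000198). For all 3 the order of the population means was double-positive, green-only, red-only, double-negative.

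Thin filament and Z-disc genes gave a similar picture. Actc1, cardiac alpha-actin, read 844, 504 and 956 in red-only, 2808, 3106 and 3170.2 in green-only, 5244, 4294 and 4142 in double-positive and 157, 77.6 and 88.95 in double-negative cells. The red-only level lay between those of green-only and double-negative cells without overlap, and the log2 difference was -2.03 (SE 0.21, adjusted p = 0.00029). The troponin genes Tnnt2 and Tnnc1 read 274, 247 and 384 against 741, 895 and 920.03 (-1.52) and 149.5, 101 and 204 against 686, 631 and 648 (-2.17). The inhibitory troponin gene Tnni3 read 11.2, 8.25 and 17.5 against 53.9, 66.3 and 51.3 (-2.28, adjusted p = 0.0011, and 0.0743 without experiment B). Actn2, the actin cross-linker of the Z-disc, read 27.1, 16.3 and 34.2 against 112, 92.9 and 128 (-2.15, adjusted p = 0.000504). The small heat shock protein gene Cryab, which is bound at the Z-disc, read 11.6, 6.00 and 12.4 against 56.6, 58.1 and 57.7 (-2.59, adjusted p = 0.00035). All 3 green-only Cryab values were nearly equal, while its red-only values were near the array medians. The exception in the Z-disc list was Pdlim3, an actinin-binding LIM protein, at 112, 117 and 146 in red-only against 66.7, 51.2 and 66.9 in green-only cells (1.02, adjusted p = 0.000814), which was lost without experiment B (adjusted p = 0.0622). Summed over the 5 cardiomyocyte markers, red-only arrays read 2327 to 3541, green-only 6936 to 8607, double-positive 12310.3 to 15552 and double-negative 241 to 391, so cardiomyocyte transcripts were present in both single-colour populations.

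The 250 bases before the annotated start of 3 filament genes are shown (RefSeq, GRCm38.p6, 5′ to 3′ on the strand of the gene, box in capitals). They were chosen because they hold the CArG box, the site of serum response factor, a regulator of muscle actins. Actc1 is at chr2:114052876-114053125 on the minus strand, Myl3 at chr9:110763428-110763677 on the plus strand, and Myl7, the atrial light chain, at chr11:5898783-5899032 on the minus strand.
Actc1: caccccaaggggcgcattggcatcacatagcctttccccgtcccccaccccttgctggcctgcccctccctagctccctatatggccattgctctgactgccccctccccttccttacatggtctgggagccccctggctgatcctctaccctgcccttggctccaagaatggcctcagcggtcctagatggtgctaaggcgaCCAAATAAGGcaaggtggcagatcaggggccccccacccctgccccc
Myl3: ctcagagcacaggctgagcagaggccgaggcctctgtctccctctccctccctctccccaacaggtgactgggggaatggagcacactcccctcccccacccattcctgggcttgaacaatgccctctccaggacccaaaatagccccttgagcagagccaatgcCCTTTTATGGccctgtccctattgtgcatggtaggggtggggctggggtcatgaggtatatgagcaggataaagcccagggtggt
Myl7: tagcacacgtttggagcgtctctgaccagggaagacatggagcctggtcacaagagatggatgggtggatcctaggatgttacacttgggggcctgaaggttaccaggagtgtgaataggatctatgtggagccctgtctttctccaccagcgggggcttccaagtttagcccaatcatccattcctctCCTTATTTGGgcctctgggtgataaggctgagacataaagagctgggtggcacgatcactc
The box starts 47, 85 and 61 bases before the start of Actc1, Myl3 and Myl7. It was searched on both strands with no mismatch. Of 25 such windows of the 18 thick and thin filament genes called higher in green-only cells, 6 (24%) hold it, beside 482 of 32851 windows (1.47%) of all genes, where windows of a gene can overlap. Only called genes of these lists were counted, so the share does not bear on which genes were called. A match is a description of these letters and not a measured site, and a role of serum response factor was not tested. Myl7 itself read 1347, 1517 and 2075 in red-only against 2899, 3584 and 3875 in green-only cells (-1.08, adjusted p = 0.00267, and 0.103 without experiment B).

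Part of the genes for calcium handling and ion channels were higher in green-only cells. Of 20 tested calcium handling genes 7 were higher in green-only cells and 0 in red-only cells (median -0.26, background 3.01% and 1.98%). That count was 3 without red-only array A, 4 without that of B, 4 without green-only array B, 4 without experiment C and 2 without experiment B. Cacna1c, the pore of the L-type calcium channel, read 10.8, 10.3 and 10.2 against 18.4, 25.5 and 20.01, and its auxiliary subunit gene Cacna2d2 17.1, 16.2 and 19.9 against 38.9, 87.4 and 69.1. Neither overlapped, and the log2 differences were -1.02 (adjusted p = 0.00258) and -1.80 (adjusted p = 0.000504). Another Cacna2d2 probe set differed by -0.01. Ryr2, the calcium release channel of the sarcoplasmic reticulum, read 8.58, 8.08 and 11.6 against 32.5, 45.3 and 26.8 (-1.87, adjusted p = 0.000848, and 0.0567 without experiment B), and on another probe set by -0.33 (adjusted p = 0.338). Atp2a2, the calcium pump, read 325, 329.7 and 313 against 326, 285 and 292 on its brightest probe set (0.10, adjusted p = 0.595), and -0.42 (adjusted p = 0.0212) as the mean of its probe sets, so its direction depends on the probe set. Of 10 tested sodium, potassium and pacemaker channel genes, 5 were higher in green-only cells (background 3.01%). The count was 3 without any one of the red-only arrays of A and B or the green-only arrays of B and C, and 1 without experiment B. Kcnj5, a subunit of the acetylcholine-gated potassium channel, was dim, at 7.11, 6.63 and 5.27 against 16.5, 14.1 and 14.1 (-1.24, adjusted p = 0.000198), and differed by -0.32 (adjusted p = 0.268) on another probe set.

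Part of the chamber and smooth muscle genes were higher in green-only cells. Of 12 tested chamber and natriuretic peptide genes, 6 were higher in green-only cells and 1, the Notch target Hey1, in red-only cells (background 3.01% and 1.98%). Several of the 6, such as Myl2 and Myh6, are sarcomere genes already described. Cited1, a transcriptional coactivator, had values of 20.8, 25.2 and 34.3 in red-only, 123, 82.4 and 104 in green-only, 70.3, 55.8 and 82.1 in double-positive and 54.3, 30.2 and 41.4 in double-negative cells. Its green-only arrays were the highest of all 12, with a log2 difference of -1.96 (SE 0.18, adjusted p = 0.000198). The natriuretic peptide genes Nppa (5.22, 4.36 and 4.18 against 6.00, 4.28 and 6.71) and Nppb (9.76, 9.42 and 9.24 against 13.9, 12.8 and 9.96) were low in both populations and not called. Hey1 read 41.3, 63.4 and 75.2 against 24.9, 41.98 and 51.03, overlapping across experiments (0.63, adjusted p = 0.0106), and was lost without the block (adjusted p = 0.309) and without red-only array B (adjusted p = 0.0669). It was also lost without experiment B or C (adjusted p up to 0.102).

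Of 12 tested smooth muscle genes, 4 were higher in green-only cells and 1 in red-only cells (median -0.36, background 3.01% and 1.98%). On the green side 2 were called without the block or without experiment B. Acta2, smooth muscle actin, read 1129, 762 and 1198 against 2045, 2299 and 2305, and Cnn1, calponin, 19.5, 11.7 and 30.9 against 64.1, 59.8 and 70.99. Green-only arrays were higher without overlap, and both genes were higher still in double-positive cells (4499, 3747 and 3526 for Acta2 and 160.5, 98.6 and 132 for Cnn1). The log2 differences were -1.13 (adjusted p = 0.00104) and -1.76 (adjusted p = 0.000303), and 2 further Acta2 probe sets differed by -0.38 (adjusted p = 0.162) and -0.32 (adjusted p = 0.368). These genes are also transcribed in early cardiomyocytes, and the part of either cell type was not tested. Itga8, an integrin chain, was the red-side gene, at dim values of 8.07, 9.33 and 10.2 against 5.03, 4.89 and 4.99 (0.88, adjusted p = 0.000264).

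**Figure D3:**
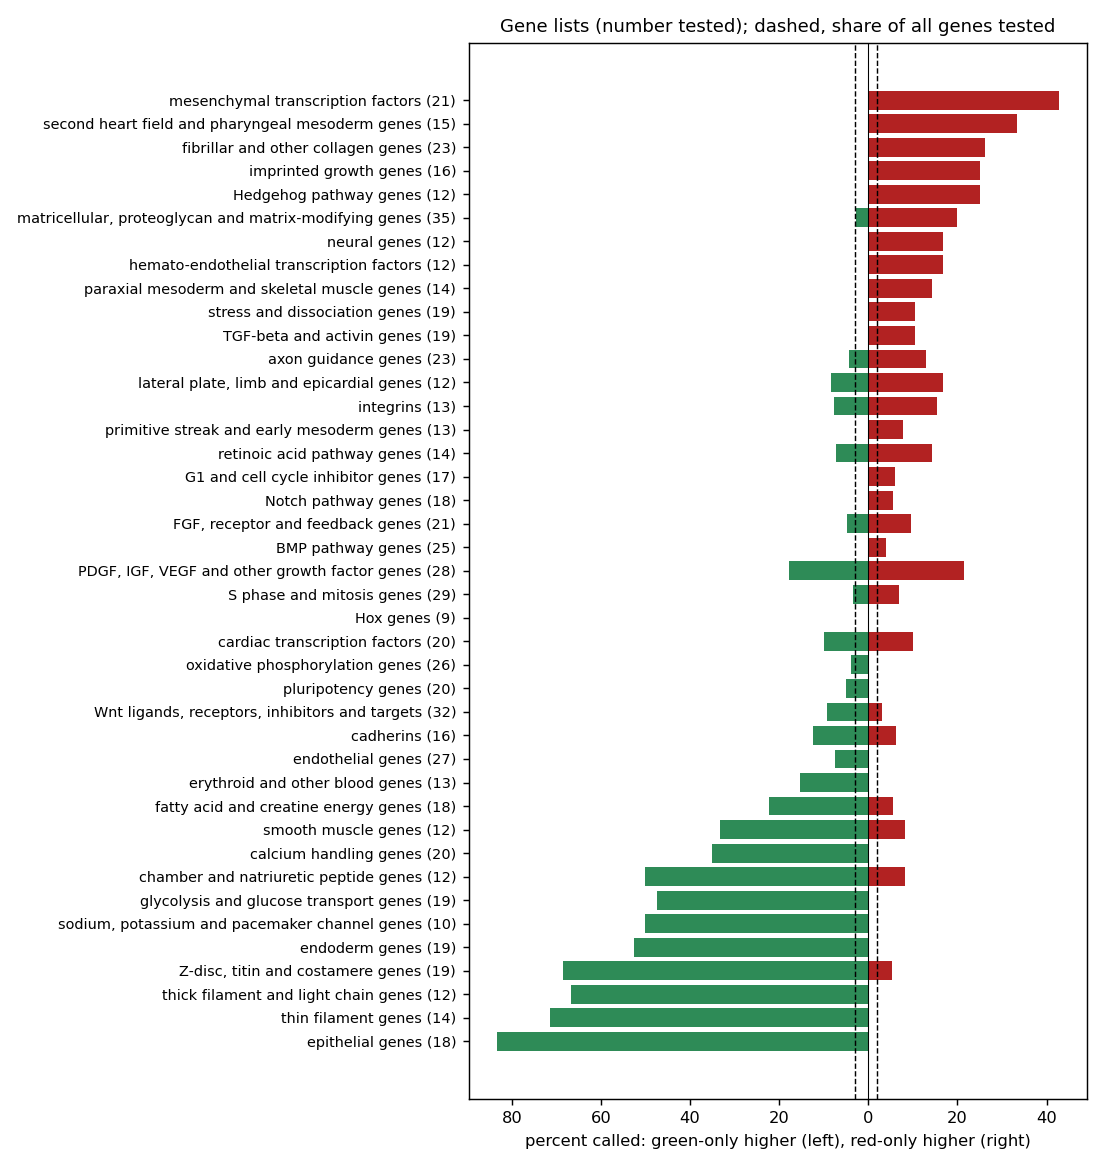
Share of the tested members of each gene list, with at least 9 tested, that were called higher in green-only cells (left) or in red-only cells (right), with the number tested in parentheses. Dashed lines mark the shares of all tested genes, 3.01% and 1.98%, and the lists at the foot are epithelial, sarcomere and endoderm genes.

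Most tested epithelial genes were higher in green-only cells. Of 18 tested, 15 were higher in green-only cells and 0 in red-only cells (median -1.71, background 3.01% and 1.98%). Without green-only array A 14 were higher in green-only cells (median -1.18). The count was 12 without the block, 11 without red-only array A or B and 4 without experiment B. Cdh1, the cadherin of epithelial junctions, had values of 12.99, 5.87 and 11.2 in red-only, 122, 39.04 and 39.5 in green-only, 6.76, 4.09 and 8.61 in double-positive and 106, 111 and 119 in double-negative cells. Green-only array A was the highest of its population, red-only and double-positive arrays were all low, and double-negative arrays were all high. The log2 difference was -2.59 (SE 0.31, adjusted p = 0.000639), and -2.13 without green-only array A (adjusted p = 0.000472). The keratin gene Krt18 read 198, 70.7 and 181 against 1496, 387 and 465, its partner Krt8 203, 116 and 222 against 1352, 488 and 498, and Krt19 35.3, 24.2 and 56.01 against 226, 104 and 129.7. Experiment A was again highest in green-only cells for all 3 keratins, and no red-only array reached a green-only array. Their log2 differences were -2.24, -1.99 and -1.997, and -1.87, -1.57 and -1.70 without that array. The tight junction gene Cldn6 read 67.4, 39.7 and 83.6 against 719.7, 186 and 247 (-2.40, adjusted p = 0.000716). Krt8 was lost without experiment B (adjusted p = 0.0561), as was the adhesion gene Epcam (-1.79 with all arrays, 0.0548 without B), of which another probe set differed by 0.03 (adjusted p = 0.948).

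Upstream windows of 3 of these genes are shown, chosen because they hold the letters CAGGTG, an E-box to which SNAI and ZEB repressors are known to bind. They are from RefSeq, GRCm38.p6, 250 bases before the start, 5′ to 3′ on the strand of the gene. The motif is in capitals, printed as CACCTG where it lies on the other strand. Krt18 is at chr15:102027966-102028215 on the plus strand, Krt8 at chr15:102004343-102004592 on the minus strand, and Cldn6 at chr17:23679115-23679364 on the plus strand.
Krt18: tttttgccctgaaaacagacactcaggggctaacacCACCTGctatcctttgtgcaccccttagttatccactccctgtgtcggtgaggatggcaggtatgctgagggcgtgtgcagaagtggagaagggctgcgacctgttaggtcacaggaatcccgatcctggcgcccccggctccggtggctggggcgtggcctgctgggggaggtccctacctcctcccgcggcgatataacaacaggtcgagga
Krt8: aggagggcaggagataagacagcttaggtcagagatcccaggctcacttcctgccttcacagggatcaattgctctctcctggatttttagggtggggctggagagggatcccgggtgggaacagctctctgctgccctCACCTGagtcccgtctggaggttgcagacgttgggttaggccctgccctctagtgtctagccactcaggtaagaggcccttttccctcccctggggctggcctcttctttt
Cldn6: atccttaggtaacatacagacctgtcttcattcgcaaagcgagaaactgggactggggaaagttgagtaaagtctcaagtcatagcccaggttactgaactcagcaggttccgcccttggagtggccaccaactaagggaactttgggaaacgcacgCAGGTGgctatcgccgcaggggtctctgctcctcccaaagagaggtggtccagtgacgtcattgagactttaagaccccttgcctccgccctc
The motif starts 214, 111 and 93 bases before the start of Krt18, Krt8 and Cldn6. Both strands were searched, and every match is also a match to the general E-box CANNTG. Of 15 windows of 12 called epithelial genes with an entry, 11 (73.3%) hold CAGGTG, beside 5657 of 32851 windows (17.2%) of all genes. Cdh1 had no such entry. Only called genes of the list were counted, so the share does not bear on which genes were called. No binding was measured here, and a role of these repressors was not tested.

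Endoderm genes were higher in green-only cells in 10 of 19 tested and in 0 the other way (background 3.01% and 1.98%). The median was -1.24, and -0.70 without green-only array A, again with 10 called. The count was 4 without the block and 6 without experiment B. Sox17, an endoderm factor that is also made in endothelium, had values of 22.3, 12.5 and 21.3 in red-only, 93.6, 38.6 and 49.6 in green-only, 11.02, 13.03 and 13.9 in double-positive and 40.4, 20.3 and 33.2 in double-negative cells. Its green-only arrays were all above the red-only arrays, with A highest, and the log2 difference was -1.64 (SE 0.23, adjusted p = 0.00146). Spink1, a secreted trypsin inhibitor of gut endoderm, read 161, 31.1 and 127 against 1428, 200.4 and 434. Values of Spink1 were low in experiment B and high in experiment A in every population, and within each experiment the green-only array was several times the red-only array (-2.53, adjusted p = 0.000198, and 0.136 without the block). The visceral endoderm transport genes Rbp4 (90.3, 15.9 and 69.9 against 759, 97.6 and 196), Apob (12.02, 8.87 and 11.6 against 137, 20.2 and 51.6) and Ttr (56.3, 25.8 and 46.8 against 417, 55.9 and 133) were also low in experiment B and higher in the green-only array of each experiment. Their log2 differences were -2.39, -2.28 and -1.84. With 1 array or 1 experiment left out, these ranged from -2.84 to -2.05, from -2.83 to -1.67 and from -2.20 to -1.31. Their adjusted p values were 0.000198, 0.00154 and 0.00158 with the block, and 0.176, 0.0662 and 0.184 without it. Another Apob probe set differed by -0.80 (adjusted p = 0.245). Summed over 5 endoderm markers, green-only arrays read 958.9, 176 and 302 in experiments A, B and C, red-only arrays 78.0 to 175, double-positive arrays 81.2 to 157 and double-negative arrays 168 to 534. How far cells of another type in the green-only sort account for these values was not tested.

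Other genes among the 15 largest differences on the green side are known from secretory and gut epithelia. Clic6, a chloride channel-like protein of secretory epithelia, read 40.7, 17.8 and 34.96 in red-only, 451, 94.3 and 120.3 in green-only, 37.1, 15.6 and 32.8 in double-positive and 166, 69.3 and 142 in double-negative cells, and the membrane carbonic anhydrase gene Car4 94.8, 26.8 and 89.6, 936, 153 and 272, 114, 55.1 and 105 and 575, 285 and 453. Both were high in green-only and double-negative cells, and their log2 differences were -2.55 and -2.47 (adjusted p = 0.000264 and 0.000639). The gut peptide gene Pyy was highest in green-only array A, at 588, 69.7 and 193 in green-only against 22.4, 29.97 and 50.4 in red-only cells (-2.62, adjusted p = 0.00757), and -1.80 without that array (adjusted p = 0.00195). The epithelial protease gene Tmprss2 read 24.9, 6.45 and 22.7 against 241, 44.99 and 59.5 (-2.49, adjusted p = 0.00129), and missed the threshold without the block (adjusted p = 0.0525) and without experiment B (adjusted p = 0.0741). With the 6 arrays alone in the fit Pyy did not pass (adjusted p = 0.0649).

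Some glucose uptake and glycolysis genes were higher in green-only cells too. Of 19 tested glycolysis and glucose transport genes, 9 were called and all were higher in green-only cells (median -0.36, background 3.01%). The count was 5 without the block and 2 without experiment B. Slc2a3, a high-affinity glucose transporter, had values of 966, 486 and 989 in red-only, 4395, 2239 and 2396 in green-only, 1388, 756 and 1205 in double-positive and 2745, 2351 and 3039 in double-negative cells. Slc2a1, the widespread glucose transporter, read 528, 336 and 497, 1140.02, 666 and 919, 805, 509 and 645 and 1069, 868 and 1136. Red-only arrays were the lowest of their experiment for both genes. The log2 differences were -1.89 (SE 0.19, adjusted p = 0.000198) and -0.995 (SE 0.11, adjusted p = 0.000303). Of 18 tested fatty acid and creatine energy genes 4 were higher in green-only cells and 1 in red-only cells (background 3.01% and 1.98%). The green count was 2 without the red-only or green-only array B or without experiment C, and 1 without experiment B. Cox7a1, the heart and muscle form of a respiratory chain subunit, read 6.87, 7.70 and 8.15 against 16.1, 14.98 and 17.8 (-1.10, adjusted p = 0.00137). Oxidative phosphorylation genes had 1 call among 26 (background 4.99% over both directions).

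Counts of endothelial genes depended on green-only array A. With all arrays, 2 of 27 tested, Sox17 and Flt1, were higher in green-only cells and 0 in red-only cells (median -0.26, background 3.01% and 1.98%). Without that array 10 were higher in green-only cells and still 0 in red-only cells (median -0.47), beside 2.86% and 1.93% of all genes in that fit. Tie1, an endothelial receptor kinase, read 13.6, 24.99 and 25.9 in red-only against 14.3, 56.1 and 53.7 in green-only cells, the nitric oxide synthase gene Nos3 19.99, 36.3 and 28.1 against 18.7, 76.1 and 68.2, and the junction cadherin gene Cdh5 38.7, 50.6 and 45.5 against 25.2, 96.2 and 94.1. In each case green-only array A was close to or below that of red-only cells, whereas those of B and C were well above all red-only arrays. The log2 difference went from -0.76 to -1.22 for Tie1 (adjusted p = 0.131 and 0.000495), from -0.75 to -1.24 for Nos3 (0.152 and 0.000249), and from -0.45 to -0.86 for Cdh5 (0.412 and 0.0301). Nfatc1, a factor of endocardial cushions, and the endothelial factor gene Sox7 did the same, with adjusted p of 0.214 and 0.125 with all arrays and 0.00108 and 0.0034 without that array. Flt1, a VEGF receptor, was called with all arrays (-0.59, adjusted p = 0.0142, with 2 other probe sets not called, at -0.73 and -0.48, and 1 called) and not without green-only array A (0.0509), red-only array B (0.0702) or red-only array C (0.0654). The Flt1 call was also lost without experiment B or C (adjusted p up to 0.197). Kdr, the main VEGF receptor, read 319.8, 465 and 369.5 against 172, 509.8 and 475 (0.13, adjusted p = 0.804), and turned to -0.18 without that array and to -0.06 without red-only array A. Summed over 5 endothelial markers, the green-only arrays read 90.7 in A, 301 in B and 289 in C, and the red-only arrays 136 to 198.

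**Figure D4:**
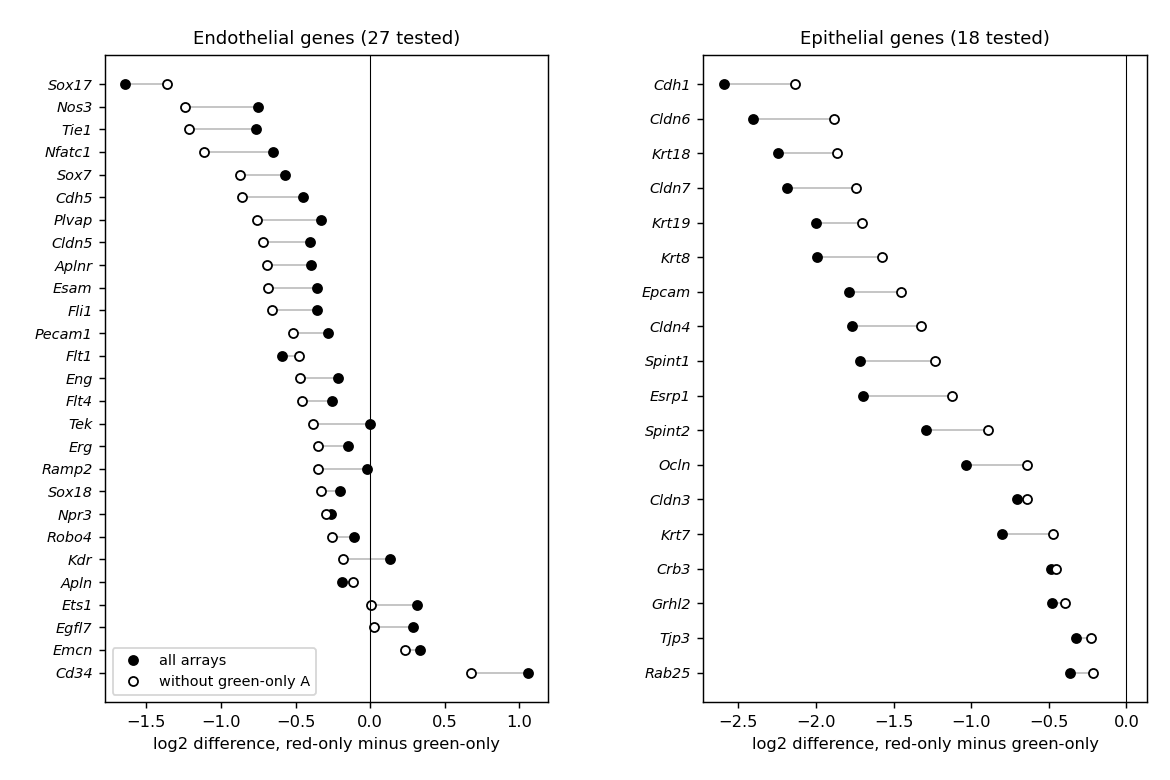
Log2 difference, red-only minus green-only, of the 27 tested endothelial genes (left) and 18 tested epithelial genes (right), with all arrays (filled) and without green-only array A (open). Without that array most endothelial genes lie further to the green side, with 10 called in place of 2, and the epithelial genes lie closer to 0 and stay below it.

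The signalling pathways described here, apart from the growth factor families above, had from 1 to 4 calls each. The background was 1.98% on the red side and 3.01% on the green side. Of 14 tested retinoic acid pathway genes, 2 were higher in red-only cells and 1 in green-only cells. Of 32 tested Wnt genes, Fzd2 was higher in red-only cells and 3 genes, Wnt2, Wnt4 and Sfrp5, were higher in green-only cells, the latter count being 1 without the block or without experiment B. Without green-only array A, 4 were higher on the red side and 2 on the green side, the former with the Wnt antagonist genes Dkk1, Frzb and Sfrp1. Dkk1 read 111, 78.8 and 76.1 against 83.6, 33.5 and 30.3 (0.99, adjusted p = 0.0562, and 1.38, adjusted p = 0.00274, without that array). Wnt4 (-0.37, adjusted p = 0.0407) missed the threshold whichever of the 6 arrays was left out (adjusted p = 0.0791 to 0.144), and the Wnt antagonist gene Sfrp5 (-0.93, adjusted p = 0.00219) without experiment B (adjusted p = 0.0586) and on another probe set (-0.78, adjusted p = 0.0551). Fzd2, a Wnt receptor, read 294, 185 and 208 against 163, 108 and 108 (0.85, adjusted p = 0.00437, and 0.0952 without experiment B). The ligand gene Wnt2, known from the inflow region of the heart, read 14.04, 25.9 and 31.6 in red-only, 32.8, 97.9 and 79.5 in green-only, 51.7, 129.99 and 89.5 in double-positive and 5.30, 15.4 and 13 in double-negative cells. Array A was lowest in each population for Wnt2, and the green-only array was higher within each experiment (-1.49, adjusted p = 0.000198, and 0.134 without the block). Of 12 tested Hedgehog pathway genes, 3 were higher in red-only cells and 0 in green-only cells (median 0.38), with 1 without red-only array A or green-only array C, 0 without experiment B and 5 after quantile normalization. BMP (1 of 25), Notch (1 of 18), FGF (3 of 21) and TGF-beta and activin (2 of 19) genes had these numbers of calls over both directions, where the background is 4.99%, and Hox genes 0 of 9.

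Defining markers of blood, pluripotent, neural, skeletal muscle and leukocyte cells were not called. Summed over 5 erythroid markers, red-only arrays read 60.2 to 142 and green-only arrays 81.5 to 117, against 1068 to 1960 in double-negative cells. The 5 pluripotency markers summed to 69.3 to 96.8 and 74.0 to 99.2, against 799.9 to 989 in double-negative cells. None of these 10 genes was called between red-only and green-only cells, nor were the tested neural, skeletal muscle and leukocyte markers. Over the wider lists, 1 of 20 pluripotency genes and 2 of 13 blood genes were higher in green-only cells (background 3.01%). Both blood calls were lost without green-only array A (adjusted p = 0.111 and 0.0632). In that fit 1 other blood gene was called higher in green-only cells (background 2.86%). Of 12 tested neural genes, Nnat and Ncam1 were higher in red-only cells, and the list summed to 1668 to 2539 in red-only and 694 to 811 in green-only cells. Ncam1, an adhesion molecule, differed by 0.95 (adjusted p = 0.00111) and on 3 other probe sets by 0.77, 0.10 and 0.095, of which the latter pair was not called. The Ncam1 call was lost without experiment B (adjusted p = 0.0696). Of 14 tested paraxial mesoderm and skeletal muscle genes, Foxc1 and Foxc2 were higher in red-only cells, and the list summed to 225 to 264 against 119 to 156. Both red-side counts stand beside a background of 1.98%. Without green-only array A they stayed at 2, and 2 neural genes and 1 paraxial gene were called higher in green-only cells (background 2.86%). These sums do not show a shift of the whole lists, whose median log2 differences were 0.06 (neural) and 0.04 (paraxial). Nnat alone read 1413 to 2246 in red-only and 404 to 504 in green-only cells, most of the neural sum. The difference in the paraxial sum lay mostly in Foxc1 and Foxc2. Of 29 S phase and mitosis genes 2 were higher in red-only cells and 1 in green-only cells (background 1.98% and 3.01%).

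The genes called between the single-colour populations were then looked up in the other 6 arrays, which share no array with them, though the fit estimates 1 spread for all 12. Of the 412 genes higher in green-only cells, 186 (45.1%) were also called between the other pair of populations, higher in the double-positive one, and 140 (34.0%) were called the other way, with 86 not called. They are 8.87% of the 2097 genes (15.3% of those tested) higher in double-positive cells and 5.33% of the 2626 (19.2%) higher in double-negative cells. The former include sarcomere genes such as Myl2, at a log2 difference, double-positive minus double-negative, of 6.20, and the latter include epithelial genes such as Cdh1, at -4.18. Of the 271 genes higher in red-only cells, 83 (30.6%) were higher in double-positive and 63 (23.2%) in double-negative cells, and 125 were not called. Those are 3.96% and 2.40% of the same lists. Cdh11 and Foxc1 were among the genes with small differences on that axis, at -0.72 (adjusted p = 0.0422) and -0.08 (adjusted p = 0.744).

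**Figure D5:**
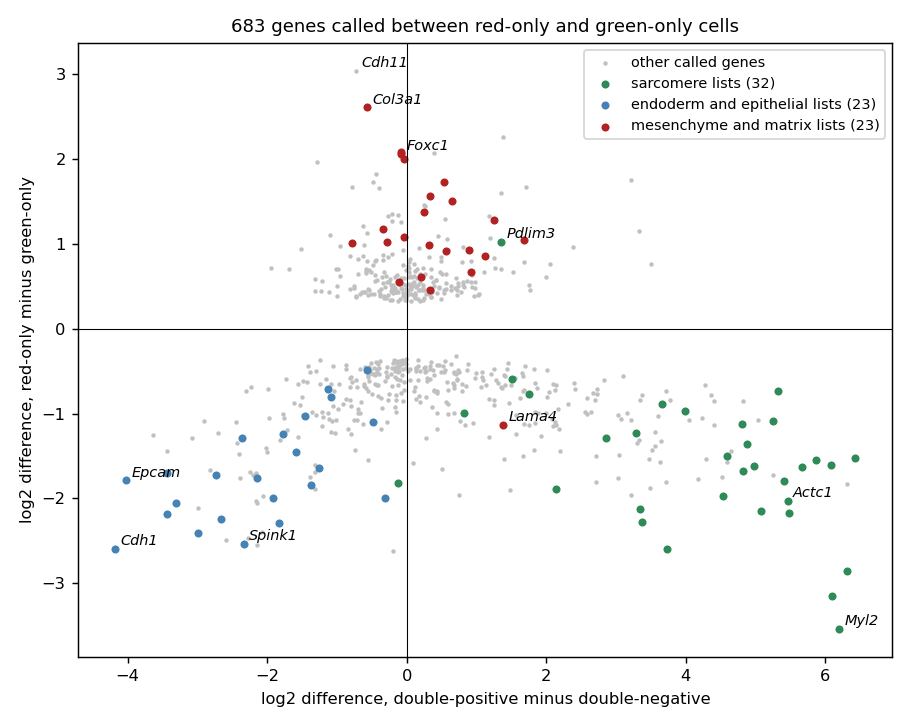
The 683 called genes by their log2 difference, double-positive minus double-negative (x axis) and red-only minus green-only (y axis), with list members coloured and other called genes in grey. Genes higher in green-only cells spread to both sides, sarcomere genes such as Myl2 to the right and epithelial and endoderm genes such as Cdh1 to the left, and the mesenchyme and matrix genes higher in red-only cells lie nearer to 0 on the x axis.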

How the data were processed

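RNA of 4 sorted populations from 3 experiments was measured on 12 arrays. The deposited values are linear probe set intensities, and MAS5 is named in the submitters' processing notes, with no version or scaling, so between-array scaling is not given in the sources used here. Intensities were log2-transformed with no pseudocount. Of 45101 probe sets, 34945 named a single gene in GEO's platform annotation, 932 several and 9160 none; the brightest probe set stood for each of 18193 genes, and 13700 genes with a mean at or above the 40th percentile of all probe sets were tested. limma 3.58.1 (R 4.3.3) fitted 12 arrays with a mean per population and the experiment letter as a block, with 6 residual degrees of freedom, p-values adjusted by Benjamini-Hochberg over all tested genes. The block is used because the comparison is paired by experiment letter. Red-only and green-only arrays of a letter deviated together (correlations 0.362, 0.404 and 0.168 for A, B and C). Across letters the correlations were -0.354 to 0.047. They are not independent of the former, because deviations were taken from the mean of the 3 arrays of a population. The fit was tested on simulated data. The number of arrays limits precision.

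The populations, gene lists and the rule for named genes were chosen with earlier results of these data known. Genes are named from the reporter-linked and marker genes, the 15 largest differences on each side without overlapping arrays, and, in each list, the first 4 members and up to 6 called members per direction. Zeb2, Tie1, Nos3, Nfatc1, Sox7, Dkk1, Frzb and Sfrp1 fall outside that rule and were chosen after their values were seen. Of 64 further probe sets of 40 named called genes, 46 were called in the same direction, 0 in the opposite direction and 18 not. Comparisons of double-positive and double-negative cells are used for description only. Figures were drawn with matplotlib.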

Additional observations from a re-analysis of the deposited data

How the results depend on the processing

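The 683 calls became 393 without the replicate block, with 143 for genes called higher in red-only and 250 for genes called higher in green-only cells. They became 402 with the 6 arrays alone in the fit (141 and 261), and 427 with a difference of at least 1.5-fold required (128 on the red side). Leaving out 1 array or 1 experiment gave 130 to 656 calls, 50 to 264 on the red side and 80 to 392 on the green side, the lowest without experiment B and the highest without green-only array A. All 130 calls made without experiment B were among the 683. Other pseudocounts, normalization, filters, probe set rules and variance models gave 579 to 948 calls. Of 81 named called genes, 51 kept call and sign in all these fits. Mef2c, at 0.05, was -0.014 as the mean of its probe sets and -0.037 to 0.21 with arrays left out. Kdr was -0.25 to 0.38 with arrays left out, and Atp2a2 -0.42 as the mean of its probe sets. The cause was not tested. Signal near the array medians limits the size of differences such as those of Cdh11, Clmp and Itga8.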

Other observations

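Adhesion and guidance genes beyond those described had scattered calls. Of 23 tested axon guidance genes 3 were higher in red-only cells and 1 in green-only cells, of 13 integrins 2 and 1, and of 16 cadherins 1 and 2. The background was 1.98% and 3.01%. Sema5a, a semaphorin, was dim, at 6.84, 7.33 and 7.01 in red-only and 4.27, 4.52 and 4.21 in green-only cells, with a log2 difference of 0.71 (adjusted p = 0.000639). Of the 166 genes called only without green-only array A, 90 were higher in green-only and 76 in red-only cells, and 193 genes were called only with it.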
